A study of Homo sapiens with 15 samples.

Results

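Interleukin and interleukin receptor genes were taken as every row of the count table whose gene symbol begins with IL followed by a digit. The rule found 89 of the 26485 genes in the table: 40 genes for ligands, 40 for receptor chains, 4 for antagonists (IL1RN, IL18BP, IL36RN and IL22RA2), 4 antisense genes and IL4I1, a secreted amino acid oxidase named for its induction by interleukin 4. A mean of at least 1 CPM (a count scaled to library size and composition) in any group was reached by 41 of the 89. The symbol rule leaves out relatives with other names, such as CXCL8 (interleukin 8), EBI3 and CSF2RB, and these were described from separate lists.

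RNA was sequenced from ML1 and U937, established human acute myeloid leukaemia lines grown in RPMI medium with serum. All 15 samples, controls included, received 5 µM Q-VD-OPh, a pan-caspase inhibitor, and were collected after 24 h. ML1 was treated with diluent or with 10 nM prexasertib, an inhibitor of the checkpoint kinase CHK1, and U937 with diluent, with 10 nM prexasertib or with 10 nM prexasertib plus 350 nM LSN622666, a compound known here only by its code name. The 5 groups had 3 libraries apiece. There was no group with LSN622666 alone, no combination in ML1 and no group without Q-VD-OPh, and each line stands for 1 leukaemia. The labels do not say whether the 3 libraries of a group came from separate cultures, so the p-values measure the spread between these libraries, which may be technical. The series was designed to find transcription changes around TNF, and the comparisons below follow its groups.

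Interleukins are secreted proteins that act on leukocytes through receptors built from a ligand-binding chain and, often, a chain shared by several ligands. Interleukins of the IL1 family signal through MYD88 and IRAK kinases to NF-kB and AP-1, while most of the others signal through JAK kinases and STAT factors bound to shared chains such as the common gamma chain (IL2RG), gp130 (IL6ST) or IL10RB. Monocytes and macrophages are known sources of IL1B, IL23 and IL10 and of the IL1 receptor antagonist, and leukaemic myeloid lines keep part of that program.

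Promoter sequence was looked up for the members because 13 of them rose with prexasertib in both lines (given below), and AP-1 and NF-kB sites are known elements of cytokine promoters. RefSeq promoters (GRCh38.p14) matched 71 of the 89 members, and the 250 bases before the annotated start were searched on both strands for the AP-1 letters TGANTCA, the CRE letters TGACGTCA and the NF-kB motif. The AP-1 letters were in 11 of the 71 member promoters (15.5%) and in 6.6% of all 27305 promoters. Among the 12 matched members that rose in both lines, 4 held them: IL23A, IL10RA, IL1A and IL1RN. The NF-kB motif was in 11 of 71 (15.5%) against 9.57% of all promoters, and in 2 of those 12, IL23A and IL6ST. The CRE letters were in 1 of 71 (IL32) against 1.77% of all. These 5 promoters are printed 5′ to 3′ on the gene's strand, because they belong to members that rose in both lines and hold a motif. Capitals mark the motif, which is a match of letters and was not tested as a site.
IL23A: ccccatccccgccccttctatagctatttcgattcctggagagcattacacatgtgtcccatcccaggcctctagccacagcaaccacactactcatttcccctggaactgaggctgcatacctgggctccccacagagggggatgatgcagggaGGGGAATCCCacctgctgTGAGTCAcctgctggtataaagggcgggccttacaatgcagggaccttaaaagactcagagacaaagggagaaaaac
IL10RA: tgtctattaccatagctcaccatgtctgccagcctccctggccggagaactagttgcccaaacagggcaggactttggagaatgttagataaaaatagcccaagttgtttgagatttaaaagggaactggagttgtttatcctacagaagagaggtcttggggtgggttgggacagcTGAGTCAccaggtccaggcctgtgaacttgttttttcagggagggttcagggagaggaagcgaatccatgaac
IL1A: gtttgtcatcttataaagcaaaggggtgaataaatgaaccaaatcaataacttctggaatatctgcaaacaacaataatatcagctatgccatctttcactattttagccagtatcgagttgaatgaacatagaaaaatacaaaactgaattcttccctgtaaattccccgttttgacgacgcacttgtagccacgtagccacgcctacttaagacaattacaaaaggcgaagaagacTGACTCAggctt
IL1RN: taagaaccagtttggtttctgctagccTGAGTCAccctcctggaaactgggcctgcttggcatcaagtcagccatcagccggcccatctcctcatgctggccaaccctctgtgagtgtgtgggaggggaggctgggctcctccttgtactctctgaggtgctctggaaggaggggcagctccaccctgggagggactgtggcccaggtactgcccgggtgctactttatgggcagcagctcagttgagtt
IL6ST: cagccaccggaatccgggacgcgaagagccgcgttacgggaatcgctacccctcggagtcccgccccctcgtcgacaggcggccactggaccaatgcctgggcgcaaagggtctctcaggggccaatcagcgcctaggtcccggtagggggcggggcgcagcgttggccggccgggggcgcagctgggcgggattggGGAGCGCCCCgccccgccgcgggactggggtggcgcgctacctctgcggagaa
The IL23A window is chr12:56338634-56338883 (plus strand), with the NF-kB letters beginning 95 bases and the AP-1 letters 77 bases before the start. The IL10RA window is chr11:117989695-117989944 (plus), with AP-1 letters 73 bases before a RefSeq start that begins no GENCODE v29 transcript, so that the window lies inside the IL10RA gene as GENCODE v29 gives it. The IL1A window is chr2:112784494-112784743 (minus), with AP-1 letters 12 bases before the start, and the IL1RN window is chr2:113117721-113117970 (plus), with AP-1 letters 223 bases before it. The IL6ST window is chr5:55994964-55995213 (minus), with the NF-kB letters 53 bases before the start.

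Libraries held between 49011222 and 87301014 counts. Pairs of libraries within a group correlated at r = 0.982 to 0.9937 across genes on the log2 scale. In U937 treated with prexasertib, replicate 2 was the highest of its 3 libraries for IL1B, IL23A, IL10RA, IL1R1, IL15, IL18RAP, IL1RN, IL6ST, IL7R and IL4I1, and values without it are given where a call or its size rests on it. Of the 14 myeloid markers listed, 12 to 14 reached 1 CPM in every group, while none of the 5 T cell markers did and CD3D, CD3E and CD28 were at 0 in all libraries. PAX5, a B cell factor, averaged 20.03 CPM in U937 with diluent, and MS4A1 was at 0 there. Markers also moved with prexasertib in ML1: mean CPM went from 514 to 3627 for LYZ, from 0.186 to 5.30 for CD14, from 16.7 to 82.2 for CSF1R, from 68.8 to 354 for CD68, from 48.4 to 246 for PECAM1 and from 0.0748 to 14.3 for PAX5. It went from 948 to 508 for MPO, from 2647 to 1154 for ELANE and from 2537 to 1352 for CTSG. The part of these shifts in the ML1 results was not tested. In these bulk samples, a change in the number of cells that express a gene and a change in RNA per cell cannot be told apart.

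Of the 89 members, 59 had counts high enough to be tested and 30 did not, the highest group mean among the latter being 0.166 CPM, and 5 of the 30 had 0 counts in all libraries. The untested members included IL6 (34 counts over all libraries, of which 22 in U937 with prexasertib and 9 in ML1 with prexasertib), IL2RA (30), IL5RA (25) and IL1RL1 (8). Expression lay mainly with receptors: 28 of 40 receptor genes reached 1 CPM in some group, against 8 of 40 ligand genes, 3 of 4 antagonists, 1 of 4 antisense genes and IL4I1. By group, 27 members reached 1 CPM in ML1 with diluent and 35 with prexasertib, and in U937 36 did so under diluent, 41 under prexasertib and 36 under the combination. Because 5 tested members passed the filter through a single group, counts of calls are also given for the 39 members with a mean of at least 1 CPM over all 15 libraries. That set does not remove the problem: IL1R1 is in it through U937 with prexasertib, the 1 group where it reaches 1 CPM.

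**Figure D1:**
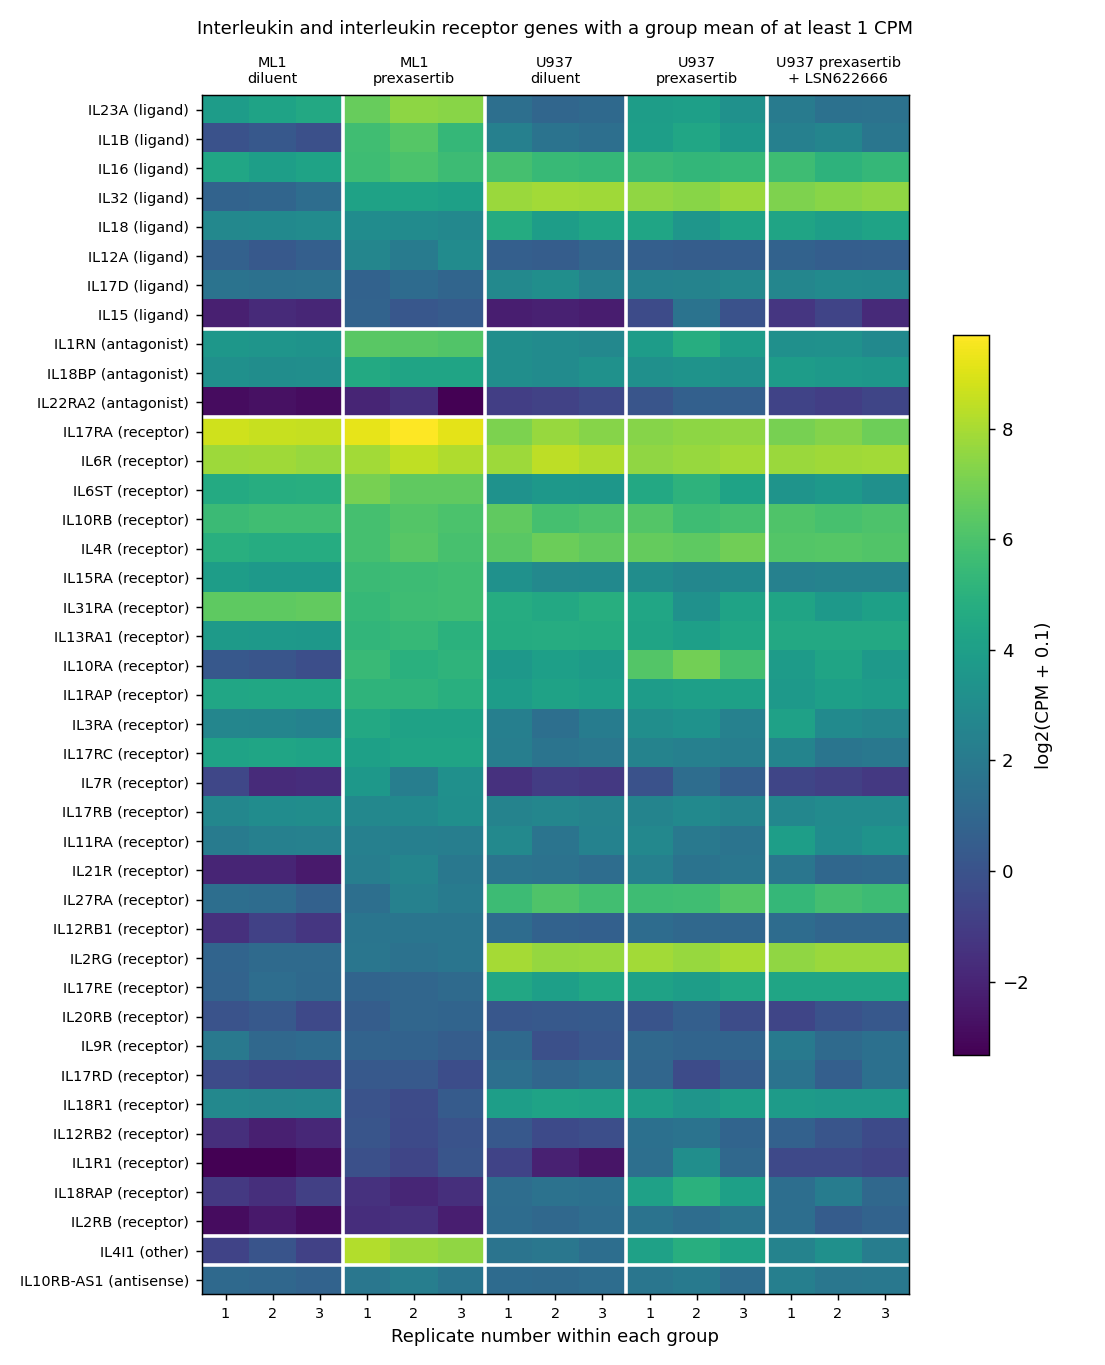
Level of the 41 members with a group mean of at least 1 CPM in each of the 15 libraries, as log2(CPM + 0.1), with 1 column per library and members ordered by role. IL17RA and IL6R are high in every library, IL32, IL2RG and IL27RA are high in the 9 U937 libraries, and IL4I1 passes from dark to bright in ML1 with prexasertib.

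Levels between genes were compared per kilobase of exon (CPM divided by GENCODE exon length). In ML1 with diluent, IL17RA, the receptor chain for IL17A and its relatives, was highest at 44.0 ± 3.63 CPM per kb (SD, n = 3), followed by IL6R, the IL6-binding chain, at 34.02 ± 2.13, IL31RA at 19.6 ± 0.797, IL23A at 15.8 ± 3.36 and IL10RB at 11.01 ± 0.693. Library ranges of IL31RA and IL23A touched (IL31RA from 19.0, IL23A to 19.1 CPM per kb), and those of the other neighbours did not. In U937 with diluent, IL2RG led at 78.9 ± 8.03 CPM per kb, then IL32 at 70.4 ± 4.87, IL6R at 43.9 ± 9.31, IL27RA at 19.5 ± 3.67 and IL17RA at 18.6 ± 3.93. IL2RG and IL32 overlapped in range, as did IL27RA and IL17RA. IL2RG shares 50.8% of its exon bases with another annotated gene, which these counts may not separate.

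With diluent, 28 of 59 were higher and 10 lower in U937 than in ML1 (47.5% and 16.9% of those tested), where 32% and 29.4% of all 17243 tested genes were called in those directions, 61.4% in all, at an adjusted p under 0.05. The share of members called either way was therefore near that of all genes, and the split leaned to U937. The median log2 difference was 1.13 over the members (1.02 with members at 0 counts in a group set at their bound) and 0.01 over all genes. Among the 39 members with a mean of at least 1 CPM, 21 were higher and 9 lower, and the share of all genes at that level was not counted.

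The widest gaps were in IL32, a cytokine gene of lymphoid and myeloid cells, and in IL2RG. IL32 was at 1.70, 1.80 and 2.45 CPM in ML1 and at 210, 241 and 227 CPM in U937 (log2 difference 6.84 ± 0.17, SE; adjusted p = 2.1e-15). IL2RG was at 1.73, 2.19 and 2.17 CPM in ML1 and at 243, 202 and 209 CPM in U937 (6.74 ± 0.16, adjusted p = 9.7e-16). The libraries of the lines did not overlap for either gene. Of 10 tested members of the common gamma family, 5 were higher and 2 lower in U937. Over all tested genes 32% were higher and 29.4% lower. The family was counted here with IL13RA1, a chain that pairs with IL4R. Besides IL2RG, IL2RB (5.33 ± 0.43), IL21R (4.38 ± 0.36), IL4R (1.76 ± 0.15) and IL13RA1 (1.02 ± 0.13) were higher, IL9R (-0.99 ± 0.34) and IL15RA (-0.78 ± 0.15) were lower, and IL7R was at -0.01 ± 0.51. IL27RA, the IL27-binding chain, was higher by 4.77 ± 0.27 and IL10RA, the IL10-binding chain, by 3.87 ± 0.28. Higher in ML1 were IL23A, the p19 subunit of IL23 (14.7, 18.7 and 22.7 CPM against 2.63, 1.89 and 2.05 in U937; log2 difference -3.09 ± 0.26), IL17RC (-2.35 ± 0.21), IL31RA (-1.80 ± 0.22), IL6ST (-1.26 ± 0.20) and IL17RA (-1.24 ± 0.17). IL1R1 had 2 counts in ML1 and 46 in U937, a ratio of 26.6 (95% interval 6.97 to 227, counting error only). IL1RN, IL1RAP, IL9R, IL10RB and IL24 each lost their call when 1 of the libraries was left out (ML1 diluent replicate 1, 2 or 3, or U937 diluent replicate 1, 2 or 3). Without U937 diluent replicate 1 the IL10RB difference of 0.53 fell to 0.29 (adjusted p = 0.12) and that of IL9R moved from -0.99 to -1.5. Without ML1 diluent replicate 3, the only ML1 control with IL1R1 counts, the fitted IL1R1 difference moved from 4.37 to 7.02.

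**Figure D2:**
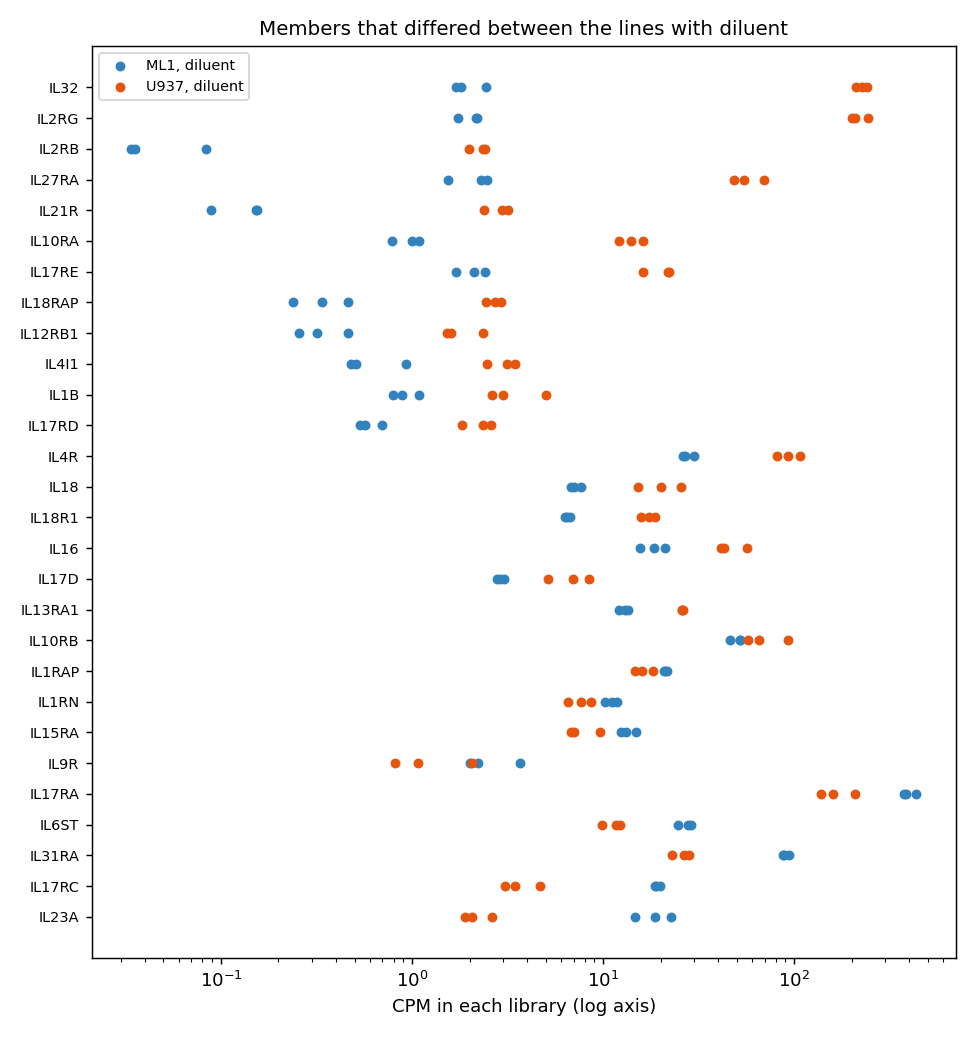
CPM of each diluent library (log axis) for the 28 members called between the lines with a mean of at least 1 CPM in either line, ordered by fold difference. Each point is 1 library, blue for ML1 and orange for U937. IL32 and IL2RG stand near 2 CPM in ML1 and at 202 CPM or more in U937, and IL23A is reversed.

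Prexasertib raised many more members than it lowered, and more in ML1 than in U937. In ML1, 37 of 59 tested members were higher and 3 lower (62.7% and 5.08%), where 25.3% and 23.5% of all tested genes were called higher and lower (48.8% in all). In U937, 16 were higher and 2 lower (27.1% and 3.39%), against 18.3% and 12.8% of all tested genes (31.1% in all). The median log2 fold change was 1.53 in ML1 and 0.41 in U937 over the members (0.2 in U937 with members at 0 counts in a group set at their bound), and 0.02 and -0.0012 over all genes. Restricted to the 39 members with a mean of at least 1 CPM, the counts were 27 higher and 3 lower in ML1 and 11 higher and 2 lower in U937. The share of all genes at that level was not counted, so these restricted counts have no background of their own.

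By role, 12 of 20 tested ligands, 20 of 32 receptors and 2 of 3 antagonists were higher in ML1. In U937, 7 of 20, 7 of 32 and 1 of 3 were. Over all tested genes, 25.3% were higher in ML1 and 18.3% in U937. The share of receptors higher in U937 (21.9%) was near that of all genes and is no result about them. By family, 9 of 10 tested common gamma members (counted with IL13RA1) and 11 of 13 of the gp130 and IL12 group were higher in ML1. In U937, 2 of 10 and 4 of 13 were. The 2 of 10 (20%) is near the 18.3% of all tested genes and is no result about that family. The IL1 family had 6 of 12 higher in each line, and in the IL17 family of 9 tested members ML1 had IL17RA higher and IL17D lower. The members higher in both lines numbered 13, which is 13 of the 16 in U937 (81.2%) and 13 of the 37 in ML1 (35.1%), where 53.8% and 38.9% of all genes called higher in those lines were shared. They were IL1A, IL1B, IL1RN, IL1R1, IL10RA, IL12B, IL12RB2, IL15, IL23A, IL3RA, IL4I1, IL6ST and IL7R. IL31RA was lower in both, IL13RA1 was lower in U937 and higher in ML1, and IL10, IL36G and IL18RAP were higher in U937 without a call in ML1. IL7, IL36G, IL22RA2, IL17C, IL17RD and IL21R-AS1, which are under 1 CPM or outside the rule for named members, were named after their values were seen.

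**Figure D3:**
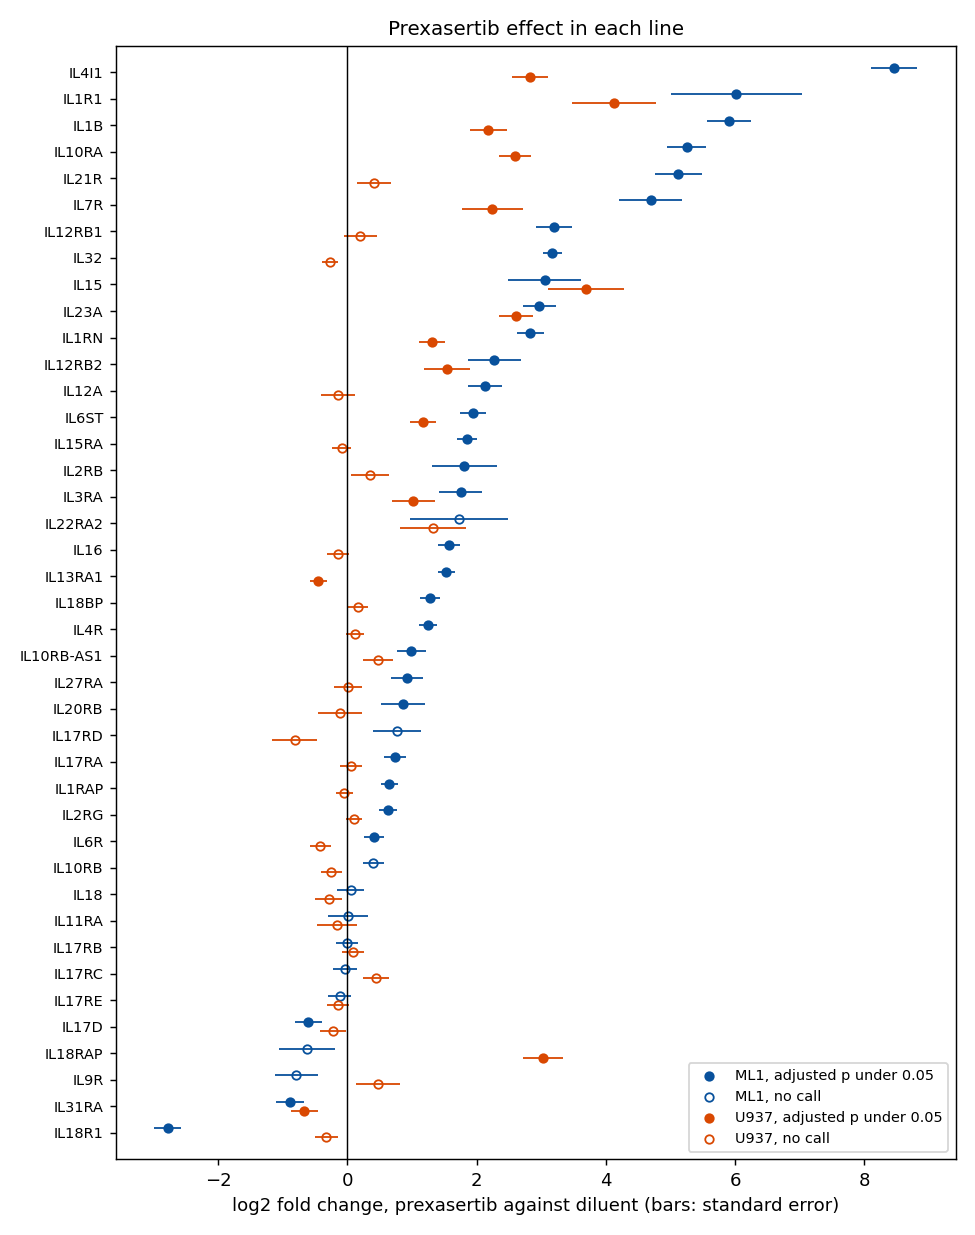
Log2 fold change of prexasertib against diluent, with its standard error, for the 41 members with a group mean of at least 1 CPM, in ML1 (blue) and U937 (orange). Filled points passed an adjusted p under 0.05. IL4I1 lies farthest right in ML1 at 8.46, IL18R1 farthest left at -2.78, and IL18RAP is at 3.02 in U937 and -0.63 in ML1.

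Among the ligands, IL1B, the secreted IL1 that needs cleavage by caspase-1, rose in both lines. Its gene (chr2:112829751-112836903, minus strand) gave 0.883, 1.09 and 0.799 CPM in ML1 with diluent and 51.5, 75.6 and 40.5 with prexasertib. The U937 libraries gave 5.01, 3.01 and 2.63 CPM under diluent, 15.6, 20.9 and 12.3 under prexasertib and 4.94, 5.95 and 3.32 under the combination. Every prexasertib library was above every diluent library of its line, and the combination overlapped diluent. The fold change was 5.90 ± 0.34 in ML1 (log2, SE; adjusted p = 3.3e-10) and 2.18 ± 0.29 in U937 (4.3e-05), and the combination was below prexasertib by -1.78 ± 0.28 (adjusted p = 0.00023). IL1A, which acts without cleavage, was much lower: 0.102, 0.119 and 0.178 CPM rose to 1.66, 0.710 and 0.515 in ML1 (2.85 ± 0.60, adjusted p = 0.0007), and 0.186, 0.198 and 0.235 rose to 1.25, 0.943 and 0.617 in U937 (2.18 ± 0.57, 0.0095).

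IL23A rose in both lines from very different baselines. ML1 went from 14.7, 18.7 and 22.7 CPM to 100.1, 176 and 165 (2.97 ± 0.25, adjusted p = 2.4e-08), which made it the highest member per kilobase in that group at 124 ± 34.7 CPM per kb. U937 went from 2.63, 1.89 and 2.05 CPM to 14.9, 15.9 and 9.56 (2.61 ± 0.26, 3.2e-06), and the combination gave 4.24, 2.82 and 2.87 (against prexasertib -2.03 ± 0.25, 3.2e-05). The effects in the lines differed by -0.36 ± 0.34 (adjusted p = 0.49). IL12B, the p40 subunit that joins IL23A in IL23 and IL12A in IL12, remained under 1 CPM everywhere. It reached 0.692, 0.730 and 0.196 CPM in U937 with prexasertib from 0.0286, 0.036 and 0.0855 (3.45 ± 0.93, adjusted p = 0.011). Its ML1 call (3.03 ± 1.09, 0.029) was lost on leaving out ML1 diluent replicate 2 or 3 or ML1 prexasertib replicate 1 or 2, and the value was 6.57 without ML1 diluent replicate 1, the only control library with counts. IL12A rose in ML1, from 1.54, 1.13 and 1.46 CPM to 6.19, 4.10 and 7.71 (2.13 ± 0.26, 2.2e-06), and was at 1.42, 1.33 and 1.84 against 1.43, 1.31 and 1.39 CPM in U937 (-0.15 ± 0.26).

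IL15, which supports NK and memory T cells, rose from 0.119, 0.190 and 0.160 CPM to 1.66, 1.06 and 1.23 in ML1 (3.05 ± 0.56, adjusted p = 0.0002). In U937 it rose from 0.114, 0.126 and 0.107 to 0.677, 3.03 and 0.858 (3.69 ± 0.59, 0.00026, and 2.68, 0.0011, without replicate 2) and was at 0.314, 0.533 and 0.195 with the combination. Replicate 2 of the prexasertib group stood far above the other 2: the combination against prexasertib was -2.13 ± 0.51 (adjusted p = 0.0052), and without that replicate -1.14 (0.074). IL10, an anti-inflammatory ligand, was under 1 CPM in every library, with 0.235, 0.685 and 0.422 CPM in U937 with prexasertib against 0, 0.072 and 0.0428 with diluent (3.57 ± 1.04, 0.016). That call was lost without U937 diluent replicate 1 or 3 or without prexasertib replicate 2 (adjusted p = 0.063, 0.051 and 0.071). The IL10 difference of the combination from prexasertib (-2.5 ± 0.90, 0.045) was lost with DESeq2 (0.087) and in 4 of the 6 fits that left out a library, and was -4.33 without combination replicate 2.

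IL32 rose in ML1, where it was low, and was not called in U937, where it was high. ML1 went from 1.70, 1.80 and 2.45 CPM to 18.2, 18.7 and 16.7 (3.17 ± 0.15, adjusted p = 3.7e-11), and U937 was at 210, 241 and 227 CPM with diluent and 184, 168 and 210 with prexasertib (-0.27 ± 0.13, 0.12). IL16, a T cell chemoattractant, followed the same order: 1.57 ± 0.17 in ML1 (6.3e-07) and -0.15 ± 0.17 in U937. IL16 shares 36.6% of its exon bases with STARD5, which rose in ML1 by 1.45 ± 0.19, so reads of the pair may not be separable. IL18, an IL1 relative, was at 6.76, 7.05 and 7.66 CPM in ML1 with diluent and 7.97, 7.62 and 6.66 with prexasertib (0.05 ± 0.21), and at 15.3 to 25.7 and 11.4 to 20.2 CPM in U937 (-0.29 ± 0.21).

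Ligands that began near 0 in ML1 gained counts. IL24 had 0 counts with diluent and 58 with prexasertib, at least 22.8-fold higher against a floor of 3 counts over the group, and IL7, with 0 and 76 counts, was at least 29.9-fold higher. Both entered testing through the 1 group where they are high, so these folds are a description, and DESeq2 did not call IL7. IL11 rose by 2.58 ± 0.56 (adjusted p = 0.00094), from 0.109 to 0.638 CPM on average, and IL27 by 1.39 ± 0.44 (0.015), a call lost without ML1 diluent replicate 1 or prexasertib replicate 1. IL17D was the only ligand that fell, from 3.02, 2.79 and 2.895 CPM to 1.61, 2.27 and 1.82 (-0.61 ± 0.21, 0.022), with the call lost without ML1 diluent replicate 1 (0.054) or prexasertib replicate 1 (0.089) or 3 (0.062). In U937, IL36G reached 0.765, 0.609 and 0.392 CPM from 0.1001, 0.180 and 0.0428 (2.41 ± 0.64, 0.01), a call lost without U937 diluent replicate 3. IL24 (2.2 ± 0.82, 0.051) and IL11 (-0.13 ± 0.50) were not called in U937.

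Of the antagonists, IL1RN, which blocks the IL1 receptor, was raised together with the ligand in both lines. ML1 went from 11.8, 11.1 and 10.2 CPM to 83.5, 80.0 and 72.2 (2.83 ± 0.21, adjusted p = 7.3e-09), and U937 from 8.67, 7.63 and 6.54 to 14.6, 27.3 and 14.8 (1.31 ± 0.20, 0.00023), returning to 9.05, 9.42 and 7.09 with the combination (against prexasertib -1.15 ± 0.20, 0.00058). The groups of each line did not overlap between diluent and prexasertib. Per kilobase, IL1RN was above IL1B in ML1 with prexasertib (24.1 ± 1.79 against 18.0 ± 5.79 CPM per kb), with library ranges of 22.2 to 25.7 and 13.1 to 24.4 that overlapped. IL18BP, the soluble decoy for IL18, rose in ML1 (1.28 ± 0.15, 1.5e-06) and was at 0.16 ± 0.15 in U937 with prexasertib, and it was higher with the combination at 14.8, 13.1 and 11.7 CPM against 9.04, 10.2 and 9.24 (0.48 ± 0.15, 0.022). That last call was lost without prexasertib replicate 1 (0.058) or 3 (0.051) or combination replicate 1 (0.09). IL18BP shares 15.6% of its exon bases with NUMA1, which fell in ML1 by -0.46 ± 0.11. IL22RA2, a decoy for IL22, was at 1.33 ± 0.51 in U937 with prexasertib (0.056), a value that DESeq2, the replicate block and the fit to the groups compared called higher.

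The IL1 and IL18 receptor chains moved in different directions. IL1R1, the signalling IL1 receptor, had 2 counts in ML1 with diluent and 132 with prexasertib, a ratio of 77.8 (95% interval 21.1 to 650, counting error only), and in U937 it was at 0.515, 0.126 and 0.0641 CPM under diluent, 2.56, 8.61 and 2.02 CPM under it, and 0.627, 0.629 and 0.535 in the combination (4.13 ± 0.65 and -2.88 ± 0.59, adjusted p = 0.00023 and 0.0018). Without prexasertib replicate 2 the U937 increase of IL1R1 was 3.17 (0.0016). Its co-receptor IL1RAP rose less, by 0.65 ± 0.13 in ML1 (0.00048), and was at -0.05 ± 0.13 in U937, while the decoy IL1R2 was under 0.3 CPM in every group. IL18RAP, the signalling chain for IL18 (chr2:102418689-102452565, plus strand), rose in U937 alone among the calls: 2.45, 2.93 and 2.72 CPM became 17.4, 31.6 and 16.6 and returned to 2.54, 4.36 and 2.03 with the combination (3.02 ± 0.31, 4.8e-06, and -2.88 ± 0.30, 1.3e-05). In ML1 it was at 0.340, 0.237 and 0.462 CPM with diluent and 0.257, 0.160 and 0.239 with prexasertib (-0.63 ± 0.43, 0.25). IL18R1, the IL18-binding chain encoded beside it, fell in ML1 from 6.74, 6.29 and 6.48 CPM to 0.924, 0.675 and 1.23 (-2.78 ± 0.21, 6.7e-09), the largest decrease of any called member under prexasertib, and was at -0.33 ± 0.18 in U937. The line difference in effect was 3.65 ± 0.52 for IL18RAP and 2.46 ± 0.27 for IL18R1 (adjusted p = 5.1e-05 and 3.3e-06), the 2 members called with a higher effect in U937. IL9R (1.27 ± 0.47) was called so with DESeq2 (0.042) and with the replicate block (0.0081).

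IL10RA, the IL10-binding chain (chr11:117986348-118003037, plus strand), rose in both lines. ML1 went from 1.09, 0.997 and 0.781 CPM to 44.9, 30.1 and 34.8 (5.25 ± 0.30, adjusted p = 2.6e-10). U937 went from 12.1, 16.1 and 14.1 to 74.0, 123 and 56.4 and came back to 13.9, 19.1 and 12.6 with the combination (2.59 ± 0.25, 2.6e-06, and -2.48 ± 0.25, 1.1e-05). Every prexasertib library was above all diluent and combination libraries of its line. The partner chain IL10RB was not called in either line (0.40 ± 0.16 in ML1, 0.053; -0.25 ± 0.16 in U937, 0.25), but DESeq2 (0.044), the fit to the groups compared (0.012) and other alternatives called it higher in ML1. It shares 38.1% of its exon bases with another annotated gene.

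Chains of the gp130 and IL12 receptors rose with their ligands in part. IL6ST, the gp130 chain shared by IL6, IL11, LIF and OSM receptors, rose from 24.7, 27.8 and 28.8 CPM to 131, 90.3 and 91.2 in ML1 (1.94 ± 0.20, adjusted p = 3.3e-07). In U937 it rose from 9.88, 12.3 and 11.7 to 23.2, 34.1 and 18.7 and was at 10.8, 12.4 and 9.26 with the combination (1.17 ± 0.20, 0.00046, and -1.23 ± 0.20, 0.00028). IL6R, the IL6-binding chain and one of the most abundant members, moved little: 0.41 ± 0.16 in ML1 (0.038), lost in 5 of the 6 fits without 1 library and 0.23 (0.24) without prexasertib replicate 2, and -0.42 ± 0.16 in U937 (0.051), called lower by DESeq2 (0.031) and with the replicate block (0.011). IL12RB2 rose in both lines, by 2.27 ± 0.41 in ML1 (0.0002) and 1.54 ± 0.36 in U937 (0.0045; 2.68, 3.03 and 1.76 CPM from 1.12, 0.666 and 0.770). IL12RB1, the chain shared by IL12 and IL23 receptors, rose in ML1 to 3.23, 3.23 and 3.18 CPM from 0.255, 0.463 and 0.320 (3.19 ± 0.28, 5.7e-08) and was at 0.20 ± 0.25 in U937. IL31RA fell in both, from 86.9, 88.6 and 93.9 CPM to 42.6, 50.1 and 52.6 in ML1 (-0.89 ± 0.21, 0.002) and from 26.4, 22.9 and 28.1 to 20.9, 9.36 and 18.4 in U937 (-0.67 ± 0.21, 0.026), where it was -0.42 (0.083) without prexasertib replicate 2 and was also lost without diluent replicate 3 (0.067).

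Several common gamma receptors were called higher in ML1, and of these IL7R alone was called higher in U937. IL7R, the IL7-binding chain, rose in both: 0.577, 0.202 and 0.231 CPM to 11.99, 4.56 and 9.20 in ML1 (4.69 ± 0.48, adjusted p = 3.4e-07) and 0.258, 0.396 and 0.342 to 0.868, 2.43 and 1.37 in U937 (2.24 ± 0.47, 0.0022), with 0.553, 0.451 and 0.340 CPM in the combination. IL21R went in ML1 from 0.153, 0.154 and 0.0888 CPM to 4.64, 5.89 and 3.64 (5.12 ± 0.36, 3.5e-09). U937 libraries had 3.18, 2.95 and 2.37 CPM under diluent and 4.97, 3.01 and 3.36 with prexasertib (0.41 ± 0.27, 0.26). IL21R shares 23.3% of its exon bases with the antisense gene IL21R-AS1, which had 0 counts in ML1 with diluent and 18 with prexasertib, and the library kit does not mark strand. IL15RA rose in ML1 to 46.3, 47.6 and 51.7 CPM from 14.9, 12.5 and 13.1 (1.85 ± 0.15, 2.3e-08) and was at -0.09 ± 0.15 in U937. IL4R (1.24 ± 0.14), IL2RB (1.81 ± 0.50) and IL2RG (0.63 ± 0.14) rose in ML1 as well, and in U937 they were at 0.11 ± 0.14, 0.35 ± 0.30 and 0.10 ± 0.12 without a call.

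IL13RA1, which pairs with IL4R, went opposite ways. ML1 rose from 13.5, 13.0 and 12.04 CPM to 38.1, 41.6 and 31.4 (1.53 ± 0.13, adjusted p = 4.7e-08), and U937 fell from 25.9, 26.3 and 25.9 to 19.6, 16.1 and 21.2 (-0.45 ± 0.13, 0.015). The U937 call was lost without prexasertib replicate 2 (-0.38, 0.063) and when only the 2 groups were fitted (-0.43, 0.054). IL3RA (CD123, an antigen of leukaemic myeloid cells) rose in ML1 from 6.13, 6.05 and 5.42 CPM to 23.4, 17.9 and 18.1 (1.75 ± 0.33, 0.00024) and in U937 from 4.76, 2.57 and 4.25 to 8.62, 9.78 and 5.18 (1.02 ± 0.33, 0.026). The U937 call of IL3RA was lost on leaving out diluent replicate 2 or 3 or prexasertib replicate 1 or 2 (adjusted p = 0.12, 0.06, 0.068 and 0.13). IL3RA and IL9R lie in regions with identical copies on X and Y, so their reads could be assigned to either copy or lost. IL17RA rose in ML1 from 436, 383 and 375 CPM to 597, 829 and 573 (0.74 ± 0.17, 0.0012) and was at 0.05 ± 0.17 in U937.

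IL4I1 (chr19:49889654-49929539, minus strand), which degrades phenylalanine and tryptophan, showed the largest increase of any member at 1 CPM or more. It rose from 0.509, 0.926 and 0.479 CPM to 296, 216 and 188 in ML1 (8.46 ± 0.36, adjusted p = 1.9e-11), to second place per kilobase in that group at 91.0 ± 21.9 CPM per kb. In U937 it rose from 3.15, 3.46 and 2.48 to 17.6, 28.4 and 18.9 (2.83 ± 0.28, 4.2e-06) and was at 5.57, 9.18 and 4.47 with the combination. IL4I1 shares 13.1% of its exon bases with ATF5 and NUP62. In ML1, ATF5 went from 179.8 to 405.4 CPM (1.17 ± 0.20) and NUP62 from 194.5 to 179 CPM (-0.12 ± 0.18), and the part of shared reads in the IL4I1 values was not tested.

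Adding LSN622666 to prexasertib in U937 lowered 15 of the 59 tested members and raised 2 (25.4% and 3.39%), where 17.1% and 11.9% of all tested genes were lower and higher (29% in all). Over the 39 with a mean of at least 1 CPM, 12 were lower and 2 higher, without a share of all genes at that level. The median log2 difference was -0.27 over the members (-0.21 with members at 0 counts in a group set at their bound) and 0.0074 over all genes. Replicate numbers tracked each other between these 2 groups, and with the number as a block 20 were lower and 4 higher, adding IL1A (-1.37, adjusted p = 0.031), IL21R (-0.63, 0.016), IL2RB (-0.69, 0.029), IL17RA (-0.4, 0.025) and IL22RA2 to those lower and IL13RA1 (0.29, 0.043) and IL17RD to those higher. Without prexasertib replicate 2, 12 were lower, IL10, IL12RB2 (-1.08, 0.064) and IL15 having lost their calls, and without combination replicate 3, 10 were lower. The share of all tested genes called was not counted for the block or for these fits.

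The members lowest relative to prexasertib alone were IL12B (-3.25 ± 0.88, adjusted p = 0.011, and -2.64, 0.051, without combination replicate 3), IL18RAP, IL1R1, IL10, IL10RA, IL15, IL23A, IL7R (-1.80 ± 0.44, 0.006), IL1B and IL4I1 (-1.75 ± 0.26, 0.00018), with the values of the others given above. The 2 comparisons share the prexasertib libraries, so that a high prexasertib library raises one effect and lowers the other, and how often their calls coincide is not given as a result. IL15RA (-0.44 ± 0.15, 0.038) and IL4R (-0.45 ± 0.14, 0.023) were also lower, but each call was lost in 3 or more of the fits without 1 library. IL11RA, the IL11-binding chain, was higher at 15.8, 7.82 and 10.2 CPM against 6.75, 3.76 and 3.16 (1.3 ± 0.31, 0.0047). IL11RA shares 17.7% of its exon bases with CCL27 and GALT, of which GALT was higher by 0.57 ± 0.16 and CCL27 was at -0.67 ± 0.51.

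Against diluent, the combination called 7 members higher and 2 lower (11.9% and 3.39%), with 6.88% and 4.11% of all tested genes called in those directions. The higher ones were IL4I1, IL11RA, IL18BP, IL3RA, IL9R, IL10RB-AS1 and IL17C, and the lower ones IL15RA and IL32. Without U937 diluent replicate 2, none was higher, IL4I1 then being at 1.15 with an adjusted p of 0.053, and without combination replicate 1 only IL4I1 was, so none of these calls held in every fit without 1 library. The difference of the combination from diluent varied among the members raised by prexasertib in U937. It was 0.41 ± 0.28 for IL1B, 0.16 ± 0.20 for IL1RN, 0.11 ± 0.24 for IL10RA, -0.06 ± 0.20 for IL6ST, 0.14 ± 0.29 for IL18RAP and 0.58 ± 0.26 for IL23A (adjusted p from 0.15 to 0.87). It was larger, though not called, for IL15 (1.56 ± 0.60), IL36G (1.47 ± 0.65), IL1R1 (1.25 ± 0.64), IL10 (1.07 ± 1.16) and IL1A (0.91 ± 0.58). With the replicate number as a block, IL15 (1.5, 0.037) and IL23A (0.59, 0.019) were called above diluent. IL4I1 was 1.07 ± 0.27 above diluent (0.021).

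**Figure D4:**
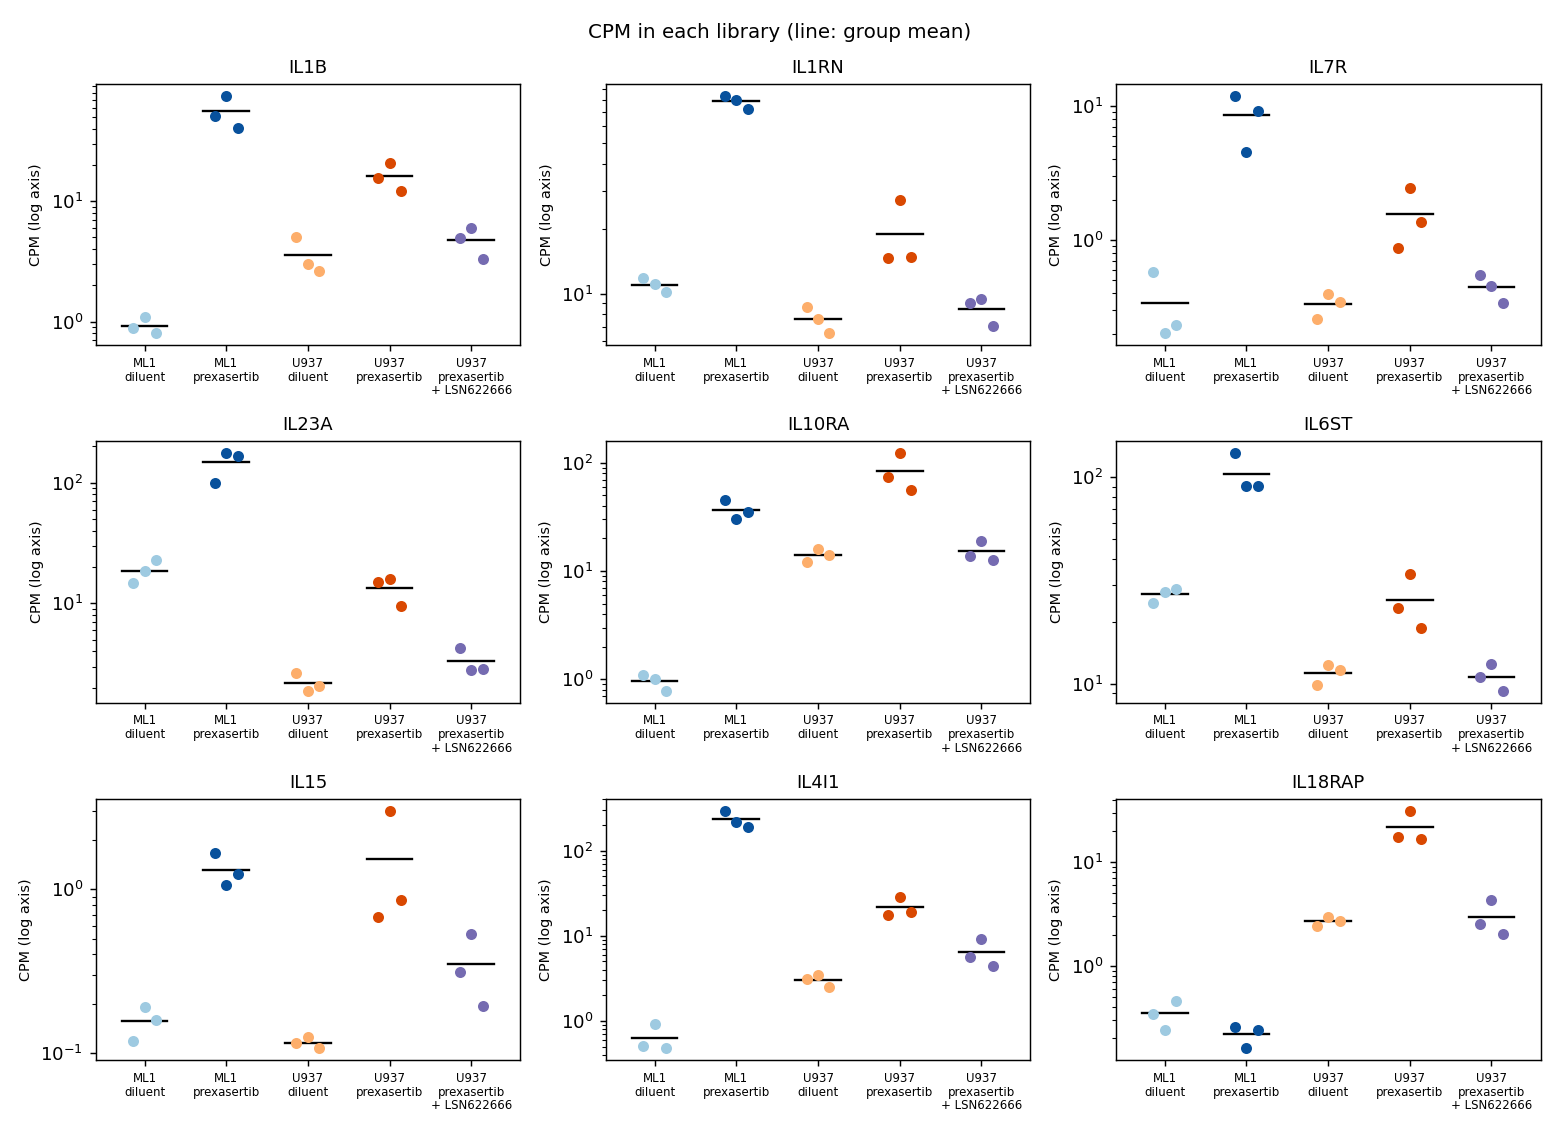
CPM in each library (log axis) for 9 members across the 5 groups, with 1 point per library and a line at the group mean. In U937 the prexasertib points stand above diluent and combination in all panels, and in ML1 prexasertib raises all but IL18RAP.

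The prexasertib effect was tested between the lines directly. It was lower in U937 than in ML1 for 23 of 59 tested members and higher for 2 (39% and 3.39%), where 12.3% and 12.4% of all tested genes were called in those directions, and the median difference was -0.73 against 0.03 over all genes. The most negative differences among members at 1 CPM or more were IL4I1 (-5.63 ± 0.42, adjusted p = 4.7e-08), IL21R (-4.7 ± 0.45, 7.3e-07), IL1B (-3.72 ± 0.41, 3.8e-06), IL32 (-3.44 ± 0.20, 2.4e-09), IL12RB1 (-2.98 ± 0.37, 1.3e-05) and IL10RA (-2.67 ± 0.36, 2.9e-05). For IL4I1, IL1B and IL10RA both lines rose and ML1 rose more, and for IL21R, IL32 and IL12RB1 ML1 alone was called. IL23A (-0.36 ± 0.34), IL15 (0.64 ± 0.80), IL12RB2 (-0.73 ± 0.54) and IL1A (-0.67 ± 0.82) were not called, which does not show that the lines responded alike.

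Genes that act with the interleukins but fall outside the symbol rule were counted from lists chosen with earlier results known. In the same comparisons 25.3% of all tested genes were higher and 23.5% lower in ML1, and 18.3% and 12.8% in U937, so that small counts near these shares are no result about a list. Of 12 adaptors of the IL1 and IL18 receptors, 5 were higher and 1 lower in ML1, and 3 higher and 2 lower in U937. IRAK2, a kinase that sustains IL1 receptor signals, led in both: 7.22 ± 1.16 to 124 ± 33.0 CPM in ML1 (4.10 ± 0.19, adjusted p = 3.2e-11) and 18.1 ± 1.98 to 40.5 ± 4.11 in U937 (1.16 ± 0.17, 0.00014), with 17.5 ± 1.89 CPM in the combination. MYD88 rose in ML1 (1.72 ± 0.12) and was at 0.01 ± 0.12 in U937.

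Of 11 tested genes for processing and release of IL1-type cytokines, 8 were higher in ML1, and 3 were higher and 1 lower in U937. AIM2, a DNA sensor of the inflammasome, rose in both (8.06 ± 0.71 in ML1, adjusted p = 7.2e-08; 4.01 ± 0.57 in U937, 0.00011), with 16.7 ± 7.41 and 5.01 ± 3.94 CPM under prexasertib. CASP1, which cleaves pro-IL1B and pro-IL18, rose in ML1 from 19.9 ± 0.467 to 63.0 ± 7.46 CPM (1.66 ± 0.14, 2.1e-08) and was at -0.27 ± 0.14 in U937. All samples held a pan-caspase inhibitor, and neither cleavage nor secretion was measured.

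Of 10 tested JAK and STAT genes, 8 were higher and 1 lower in ML1, and 3 higher and 3 lower in U937. STAT3, which carries IL6 and IL10 signals, rose in both (1.28 ± 0.10, adjusted p = 1.4e-08, and 0.38 ± 0.10, 0.0092). JAK3, the kinase that binds IL2RG, was at 0.120 ± 0.118 CPM in ML1 and 51.9 ± 10.1 in U937 with diluent, the same order as IL2RG. The feedback genes SOCS1 and SOCS3 rose in both lines, SOCS1 by 5.16 ± 0.44 in ML1 and 2.27 ± 0.39 in U937 and SOCS3 by 4.98 ± 0.37 and 1.47 ± 0.35, and 5 of 12 feedback genes were higher and 3 lower in ML1 against 3 higher in U937.

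Of 12 tested genes for related chains and cytokines, 8 were higher in ML1 and 7 in U937. CSF2RB, the beta chain used by IL3RA, rose by 2.08 ± 0.17 in ML1 and 1.67 ± 0.17 in U937 and the combination differed from diluent by 0.00 ± 0.17. CRLF2, which pairs with IL7R in the TSLP receptor and lies beside IL3RA in the X and Y copies, rose by 7.94 ± 0.59 and 1.42 ± 0.39. CXCL8 rose from 23.9 ± 1.78 to 3190 ± 594 CPM in ML1 and from 8.35 ± 2.40 to 202 ± 66.8 CPM in U937 (7.06 ± 0.41 and 4.60 ± 0.37), and EBI3, the partner of IL27, rose by 6.95 ± 0.87 and 2.33 ± 0.80 to means of 1.5 and 0.18 CPM.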

How the data were processed

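Per the labels' protocols, RNA came from the RNeasy Mini kit and libraries from the unstranded TruSeq RNA Library Prep Kit v2. The authors deposited 1 table of raw read counts per gene. Per the submitters' processing notes, TopHat2 2.0.14, Bowtie2 2.2.6, featureCounts 1.4.6 and hg38 were used, while annotation and strand setting were not given in the sources used here. Overlapping and antisense genes can therefore not be told apart.

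The 15 libraries (49011222 to 87301014 counts) were fitted in 1 edgeR 4.0.16 model of 5 group means, with TMM scaling, filterByExpr (17243 of 26485 genes tested) and the robust quasi-likelihood F-test. P-values were adjusted over all tested genes by Benjamini-Hochberg, a call is an adjusted p under 0.05, and SE is the absolute log2 fold change divided by the square root of F. CPM are TMM-scaled, and exon lengths and coordinates are GENCODE v29 (GRCh38), matched for 88 of 89 members. Genes with a group at 0 counts have folds against a floor of 3 counts over the group, without an interval. Where the lower group had 1 to 3 counts, the observed ratio is given, with an interval for counting error only. The fit was tested on simulated data for prexasertib against diluent in U937 only. Changes were placed in well-counted genes, so that test does not cover members under 1 CPM.

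The members and the lists were chosen with earlier results of these data known. Named were, for each comparison, up to 10 called members in each direction with the largest change and a mean of at least 1 CPM in a compared group, a listed set of well-known members whatever their values, the 5 highest per kilobase in each diluent group, and members whose call differed in direction between lines. Same-numbered libraries of the combination and prexasertib groups of U937 deviated together (r = 0.409, 0.37 and 0.384), and at least 1 pair was under 0.1 between other groups. Whether the replicate numbers mark paired libraries was not tested. Alternatives were DESeq2 1.42.0, other scalings and filters, a fit to the compared groups, the replicate block, a fold threshold and leaving out each library.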

Additional observations from a re-analysis of the deposited data

Results flagged for a closer look

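The effect of prexasertib differed between the lines, by the test of the difference itself (U937 effect minus ML1 effect on the log2 scale, edgeR's quasi-likelihood test, adjusted p under 0.05), for 24 named members. It was higher in U937 for IL18RAP (3.65) and IL18R1 (2.46). It was lower in U937 for ligands and IL4I1: IL4I1 (-5.63), IL1B (-3.72), IL32 (-3.44), IL11 (-2.72), IL12A (-2.28) and IL16 (-1.72). IL24 was fitted at -5.27, but it had 0 counts in ML1 with diluent. It entered testing through the 1 group where it is high, so its fitted value and call are a description. The antagonists IL1RN (-1.52) and IL18BP (-1.11) were lower as well. The receptors with a lower effect were IL21R (-4.7), IL12RB1 (-2.98), IL10RA (-2.67), IL7R (-2.46), IL13RA1 (-1.98), IL15RA (-1.94), IL4R (-1.13), IL6R (-0.83), IL6ST (-0.78), IL1RAP (-0.7), IL17RA (-0.69), IL10RB (-0.65) and IL2RG (-0.53). The calls of IL6ST, IL2RG, IL17RA, IL10RB and IL24 were lost when single libraries were left out.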

How the results depend on the processing

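No direction of a called member reversed. Of 132 named calls over the 6 comparisons, 99 were kept in every alternative fit that still tested the member, and 33 were lost in at least 1. Of 132 not called, 22 were gained in at least 1. These counts leave out the fold threshold, and a member that a filter removed was not counted as lost. For prexasertib in U937, the 16 higher were 8 under the stricter filter (at least 5 CPM in 3 libraries), which tests fewer genes, and the 2 lower were 0 in the fit to the groups compared and with an absolute log2 fold change of at least 1, and 0 to 3 with single libraries left out. In ML1, the 37 higher were 19 under the stricter filter, and the 3 lower were 1 with the fold threshold. For the combination against prexasertib, the 2 higher were 1 in the fit to the groups compared and with the fold threshold and 1 to 3 with libraries left out, and the 15 lower were 9 under the stricter filter and 10 to 17 with libraries left out. For the combination against diluent, the 7 higher were 4 under the stricter filter and 0 to 6 with libraries left out, and the 2 lower were 0 with upper-quartile factors, the stricter filter or the fold threshold and 0 to 1 with libraries left out. Between the lines with diluent, the 28 higher were 16 under the stricter filter and the 10 lower were 6 with the fold threshold. Apart from the stricter filter and the fold threshold, the cause was not tested.

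Shares of all tested genes were counted for the main fit only, so counts under the alternatives are no result about the members. With the replicate number as a block, 20 members were higher and 4 lower with prexasertib in U937, and 39 were higher and 4 lower in ML1. The combination had 4 higher and 20 lower against prexasertib and 9 higher and 3 lower against diluent. The line difference in effect had 3 higher and 25 lower, and the lines with diluent 29 higher and 11 lower. All 3 same-numbered pairs of the combination and prexasertib groups reached r = 0.37 or more. Pairs of U937 diluent and combination were at 0.386, 0.268 and 0.0477. Pairs of ML1 diluent and prexasertib were at 0.161, 0.0901 and 0.0604. In both, each library matched its own number best, while replicate 2 of U937 diluent did not among the prexasertib libraries. Whether these groups were paired was not tested, and the main fit has no block.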
